A study of Mus musculus with 10 samples.

Results

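Of the ParaHox genes, Gsx1, Pdx1, Cdx2, Gsx2 and Cdx1 were examined for trimethylation of histone H3 at lysine 27 (H3K27me3) in LT-HSCs, the long-term hematopoietic stem cells, of the mouse fetal liver. These 5 of 21938 protein-coding genes were chosen on the peaks measured in these same profiles, by a rule that takes every peak over their promoters or bodies. Peak calls, widths and signal of these genes, and their differences between genotypes, are therefore given as a description, and no p-value is given for a member. For each gene the promoter comprised the 5 kb before and the 100 bp after every annotated start of transcription. The profiles come from CUT&Tag, in which an antibody guides a transposase to the mark inside lightly fixed cells and the released fragments are sequenced. There were 3 IκBα WT and 3 IκBα KO libraries, named WT1 to WT3 and KO1 to KO3, all from LSK CD48-CD150+ cells sorted from E14.5 fetal livers. The KO line carries the targeted Nfkbia tm1Bal allele, which removes the NF-κB inhibitor IκBα in every cell of the embryo. The study calls the replicates independent, used few sorted cells for each assay and took littermates of the genotypes where possible, but a figure legend gives fewer experiments than libraries per genotype. No source says which embryos, litter or experiment gave which library, so the spread between libraries may be partly technical. Another 4 samples, with an antibody to IκBα, were not analysed here.

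ParaHox genes are homeobox genes descended from the same ancestral set as the Hox genes. Gsx1 and Gsx2 pattern the ventral forebrain, Pdx1 is required for the pancreas and later for beta cells, and Cdx1 and Cdx2 specify the intestinal epithelium and the posterior body axis. In mouse, Gsx1, Pdx1 and Cdx2 still lie side by side, whereas Gsx2 and Cdx1 have been separated from their ancestral clusters. H3K27me3 is laid down by Polycomb repressive complex 2 and marks, often in broad domains over CpG-rich promoters, developmental regulators that are silent in a given tissue. No member is a known LT-HSC gene, although Cdx genes, Cdx4 among them, act upstream of Hox genes during embryonic blood formation.

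The promoter letters are shown for the members because H3K27me3 domains tend to lie over CpG-rich sequence. RefSeq promoter windows of 300 bases (GRCm38.p6, 250 before to 50 after the RefSeq start) were found for 4 of the 5 members, all on chromosome 5, and each is printed 5′ to 3′ on the strand of its gene with every CG dinucleotide in capitals. The windows lie at chr5:147188446-147188745 on the plus strand for Gsx1, chr5:147269847-147270146 on the plus strand for Pdx1, chr5:147307200-147307499 on the minus strand for Cdx2 and chr5:75075351-75075650 on the plus strand for Gsx2.
Gsx1: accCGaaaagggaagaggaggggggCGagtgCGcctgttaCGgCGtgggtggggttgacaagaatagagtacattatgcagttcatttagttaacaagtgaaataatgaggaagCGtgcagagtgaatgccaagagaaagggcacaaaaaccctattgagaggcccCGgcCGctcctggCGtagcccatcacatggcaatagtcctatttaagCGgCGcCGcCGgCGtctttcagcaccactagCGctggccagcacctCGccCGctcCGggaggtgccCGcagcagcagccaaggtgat
Pdx1: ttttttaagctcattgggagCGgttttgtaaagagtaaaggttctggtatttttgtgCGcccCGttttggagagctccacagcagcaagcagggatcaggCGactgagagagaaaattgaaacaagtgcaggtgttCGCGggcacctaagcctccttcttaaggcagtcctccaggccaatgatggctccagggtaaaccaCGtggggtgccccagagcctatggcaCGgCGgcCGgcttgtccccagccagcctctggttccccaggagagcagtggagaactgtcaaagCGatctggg
Cdx2: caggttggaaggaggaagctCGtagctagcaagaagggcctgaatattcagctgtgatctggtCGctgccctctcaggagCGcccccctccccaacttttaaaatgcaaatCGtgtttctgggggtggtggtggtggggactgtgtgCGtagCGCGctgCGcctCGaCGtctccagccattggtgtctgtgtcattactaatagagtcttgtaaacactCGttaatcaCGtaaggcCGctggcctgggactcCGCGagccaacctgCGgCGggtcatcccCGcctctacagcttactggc
Gsx2: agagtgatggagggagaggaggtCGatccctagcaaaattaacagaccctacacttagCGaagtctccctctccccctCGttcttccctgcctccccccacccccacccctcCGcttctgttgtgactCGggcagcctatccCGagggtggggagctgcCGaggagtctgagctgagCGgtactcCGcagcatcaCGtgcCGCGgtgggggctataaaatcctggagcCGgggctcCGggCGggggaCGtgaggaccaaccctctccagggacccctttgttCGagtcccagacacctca
The windows held 19 CG in Gsx1, 11 in Pdx1, 18 in Cdx2 and 17 in Gsx2, against a median of 7 over 32851 RefSeq promoters. Of all promoters, 28.1% held as many as Gsx1, 29.7% as many as Cdx2, 31.4% as many as Gsx2 and 41.4% as many as Pdx1, so these windows were above the median but common. The homeodomain core TAATTA and the nuclear receptor half-site AGGTCA were searched on both strands. No window of the 4 held either, while 5.29% of all promoters held TAATTA and 16.3% held AGGTCA.

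Only the peak lists were used here, so every value depends on how many peaks each library gave. WT1, WT2 and WT3 held 4160, 6013 and 1047 peaks, and KO1, KO2 and KO3 held 4904, 5157 and 2325. WT3 stood apart: its median peak was 1727 bp wide, against 2835 to 3624 bp in the other 5 libraries, and its smallest peak had a total signal of 3344, against 6616 to 7307. Replicate 3 of each genotype was sequenced with 50 bp reads and the others with 75 bp reads. Total signal is the coverage summed over the bases of a peak and is not scaled to depth. The peak lists hold no read counts, so no counting error is given. By the read totals that the study states, WT3 was the shallowest library, KO3 the next and WT2 the deepest. None of 12 LT-HSC marker genes, of 7 markers of endothelium, hepatoblasts and erythroid cells or of 3 ubiquitously active genes had a promoter peak in any library. H3K27me3 peaks therefore gave no positive check of cell identity, and the part of other cells in these profiles was not tested.

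All 5 members had an H3K27me3 peak over the promoter in at least 5 of 6 libraries. Cdx2, Gsx2 and Cdx1 had one in all 6, as 2.65% of coding genes did. Gsx1 lacked it in WT3 and Pdx1 lacked it in WT1. The calls thus covered 3 of 5 members in all 3 WT libraries, against 3.01% of coding genes, and 5 of 5 in all 3 KO libraries, against 7.12%. At least 1 library marked 5 of 5 members, against 15.8% of coding genes. The pattern of Gsx1 and Pdx1, all 3 KO and 2 of 3 WT libraries, was found at 3.86% of coding genes. Because the members were chosen on these calls, nothing is read from the excess over the background.

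Gsx1, Pdx1 and Cdx2 occupy 128575 bp of chromosome 5, taken as chr5:147183696-147312270 (GRCm38) with 5 kb flanks. Peaks covered 25.9% of this window in WT1, 39.2% in WT2 and 2.55% in WT3, and 34.3%, 31.9% and 23.6% in KO1, KO2 and KO3. The WT mean was 22.6% ± 18.6 and the KO mean 29.9% ± 5.64 (SD, n = 3 each), so the difference of 7.35 percentage points was smaller than the WT spread. It was 0.517 points among the 75 bp libraries and 21 points between the 50 bp libraries. The groups overlapped, and WT3 alone lay below every KO library. No library had a single domain across the window: 54.0% of its bases lay under no peak, 15.4% under peaks of exactly 5 libraries and 0.256% (329 bp) under peaks of all 6.

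**Figure D1:**
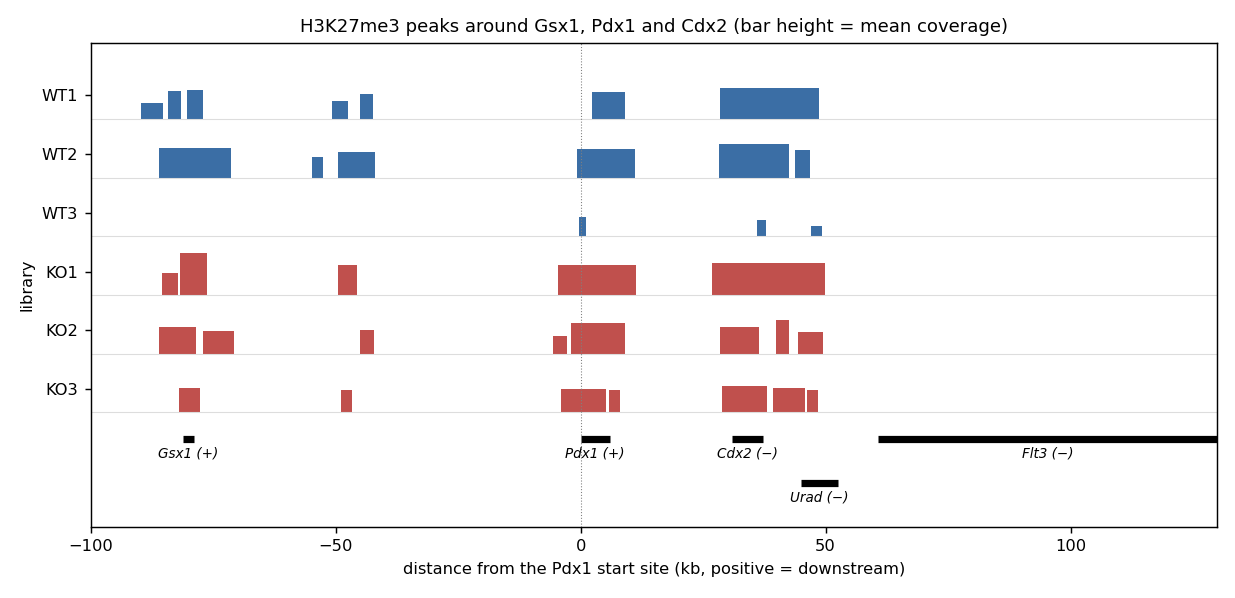
H3K27me3 peaks of the 6 libraries around Gsx1, Pdx1 and Cdx2, plotted by distance from the Pdx1 start site in kb, with WT in blue and KO in red. Bar height is the mean coverage of the peak on 1 scale for all libraries, black bars are coding genes, and (+) or (−) gives their strand. Peaks stood in separate blocks over the 3 genes, WT3 had only short ones, and the Flt3 body held none in any library.

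The blocks found in at least 5 libraries followed the genes. There were 7 such stretches, and the longest, 9048 bp at chr5:147298758-147307805, held all of Cdx2. Another 3 lay over exons of Pdx1 and 1 over Gsx1 exons, and the last pair held no exon of the 3 genes. Between Gsx1 and Pdx1, 5 libraries had at least 1 further peak that did not touch a gene of the cluster. In WT1, WT2, KO1, KO2 and KO3 such a peak began 30451, 31802, 31675, 36297 and 32348 bp past the Gsx1 start, and WT3 had none. In the map of the cluster these peaks lie about midway between the genes, but they do not all overlap. The KO2 peak began past the ends of the KO1 and KO3 peaks. WT1, WT2 and KO2 each had another such peak, which began 36219, 26447 and 4111 bp past the Gsx1 start.

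CG density in this window was highest where most libraries had a peak, but did not rise at each step. Bases under no peak had 1.20 CG per 100 bases, those in 1 library 1.11, in 2 libraries 1.01, in 3 libraries 1.82, in 4 libraries 3.54 and in 5 libraries 3.05. The 329 bases under peaks of all 6 libraries had 7.29. Over chromosomes 1 to 19, X and Y the same measure went from 0.806 under no peak to 4.05 in 5 libraries and 5.81 in all 6. Neighbouring bases share peaks and libraries, and these values are a description.

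**Figure D2:**
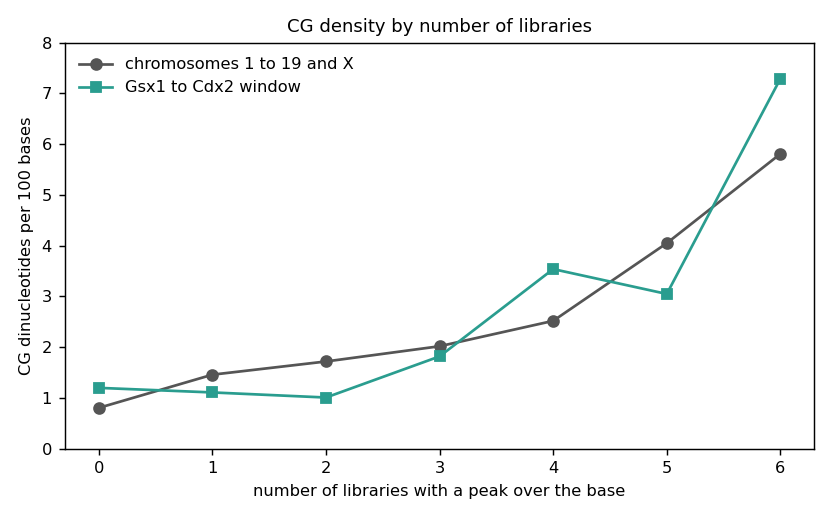
CG dinucleotides per 100 bases against the number of libraries with a peak over the base. Squares give the window of Gsx1, Pdx1 and Cdx2. Circles give chromosomes 1 to 19, X and Y (the key in the figure leaves out Y). Density was 1.20 under no peak and 7.29 under peaks of all 6 libraries in the window, and 0.806 and 5.81 over the chromosomes.

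Gsx1 (ENSMUSG00000053129.5, chr5:147188696-147190947, plus strand, 2 exons) encodes a homeodomain factor of the ventral forebrain and spinal cord. Its peaks had a total signal of 35988 in WT1, 66777 in WT2, 46689 in KO1, 30583 in KO2 and 16162 in KO3, and no peak was called in WT3, where the nearest lay 80892 bp from the promoter. The peaks covered the whole body in WT2 and all 3 KO libraries and 62.1% of it in WT1, where the start site fell in a gap between peaks. Where a peak was called, promoter coverage ran from 17.2% in KO3 to 95.9% in KO2, and it overlapped between genotypes. Mean coverage inside the peaks was 4.21 ± 0.719 (SD, n = 5).

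Pdx1 (ENSMUSG00000029644.7, chr5:147269959-147275848, plus strand, 2 exons) showed the clearest separation of the genotypes, and it lay in the extent of the peaks. Its peaks spanned 6687, 11895 and 1415 bp in WT1, WT2 and WT3, and 15944, 13864 and 11492 bp in KO1, KO2 and KO3. In each same-numbered pair the KO peaks were wider, and the groups overlapped only because WT2 exceeded KO3, the WT mean being 6666 ± 5240.0 bp and the KO mean 13767 ± 2228 bp (SD, n = 3 each). Over the promoter the groups did not overlap. Peaks covered 0%, 16% and 7.29% of the promoter in WT1, WT2 and WT3, and 93.0%, 82.7% and 81.9% in KO1, KO2 and KO3. The means were 7.76% ± 8.01 in WT and 85.9% ± 6.20 in KO (SD, n = 3 each). The difference of 78.1 percentage points was about as large among the 75 bp libraries, 79.9, as between the 50 bp libraries, 74.6.

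Of 3469 coding genes with a promoter peak in at least 1 library, 2.77% had a higher promoter coverage in every KO than in every WT library and 0.115% the reverse. The reverse needs a promoter peak in WT3, which had one at 3.46% of coding genes, against 8.06% to 12.9% in the other libraries. The directions were therefore not equally open, and nothing is read from their difference. The lowest KO value at Pdx1 exceeded the highest WT value by 65.9 percentage points. A gap of at least 50 points, a limit set after the Pdx1 value was seen, was found at 1 gene, Pdx1 itself (0.0288%). The KO2 share rests partly on a separate upstream peak with a total signal of 7508, close to the smallest of that library, 7307. Without that peak the KO2 peaks would begin at -1988 bp. The KO2 share and the gap would then be smaller, by an amount that was not computed. At the other 4 members promoter coverage overlapped between the genotypes.

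The KO peaks reached further upstream of Pdx1. With negative positions upstream of the start site, they began at -4644, -5620 and -4078 bp in KO1, KO2 and KO3, whereas those of WT2 and WT3 began at -715 and -271 bp and that of WT1 at 2276 bp, inside the gene. Within the promoter, 2480 bases lay under peaks of all 3 KO and of 0 WT libraries, in a stretch from -4078 to -2872 bp and another from -1988 to -716 bp. They held 1.73 CG per 100 bases, against 2.66 in the bases of the Pdx1 region that 5 or 6 libraries shared. Conserved enhancers that drive Pdx1 in the pancreas are known upstream of the gene, and their positions were not compared with these peaks. KO2 had a separate peak wholly upstream of the gene, on which its start at -5620 bp and its part of the first stretch rest. The total signal of this peak was 7508, close to the smallest of that library, 7307. Its highest block, 97 bases at chr5:147266322-147266418 on the plus strand, lies within the first of these stretches and is shown as an example of sequence under KO peaks only. It has 0 CG dinucleotides, which would be in capitals.
Pdx1 upstream block: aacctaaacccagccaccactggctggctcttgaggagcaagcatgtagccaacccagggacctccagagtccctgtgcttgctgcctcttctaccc

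Inside the peaks, Pdx1 signal did not separate the genotypes. Mean coverage was 4.03, 4.36 and 2.97 in WT1, WT2 and WT3 and 4.61, 4.25 and 3.57 in KO1, KO2 and KO3. The maximum was 9, 16 and 10 in the WT libraries and 15 in each KO library. In WT2, WT3, KO2 and KO3 the maximum lay 305, 145, 292 and 190 bp past the annotated start, whereas in WT1 and KO1 it lay 6428 and 6786 bp past it, beyond the 3′ end of the gene. Coverage outside peaks was not analysed here, so whether the WT libraries had weaker signal upstream of Pdx1 was not tested.

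**Figure D3:**
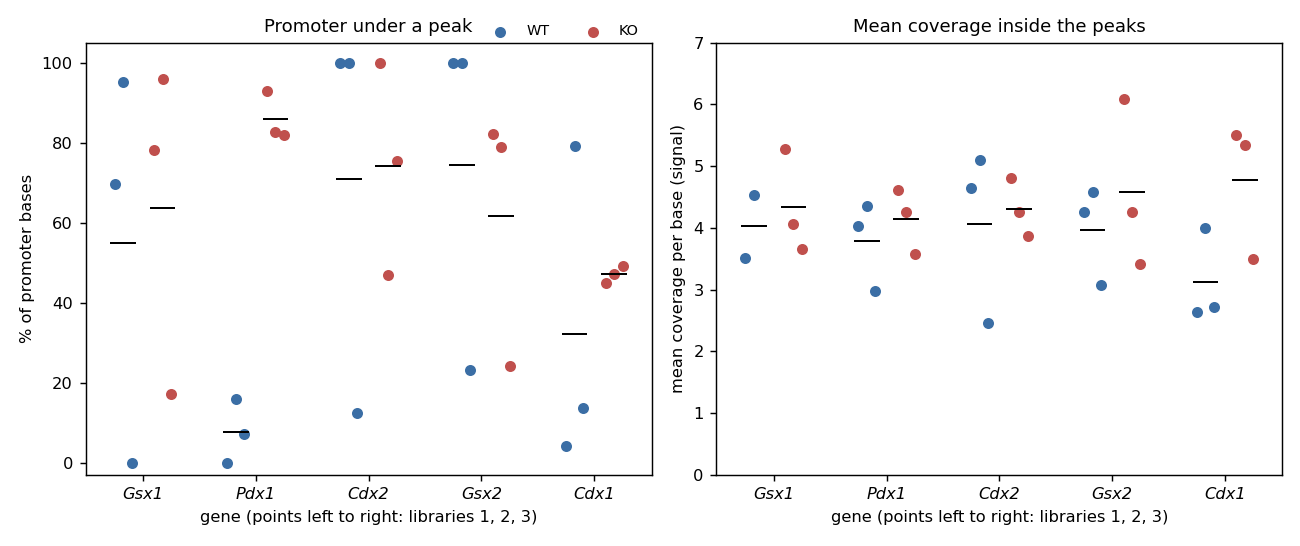
Share of promoter bases under peaks in percent (left) and mean coverage inside the peaks in signal per base (right) for each member, with WT in blue, KO in red and a black line at the group mean. Pdx1 promoter shares were 0% to 16% in WT and 81.9% to 93.0% in KO, and the groups overlapped at the other members and in mean coverage at every member.

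Cdx2 (ENSMUSG00000029646.3, chr5:147300805-147307270, minus strand, 3 exons), which specifies the trophectoderm and the intestine, carried on average the widest peaks of the 5 genes. They spanned 20107, 14397 and 1862 bp in WT1, WT2 and WT3, and 23128, 10571 and 15690 bp in KO1, KO2 and KO3. Peaks covered the whole body in WT1, WT2, KO1 and KO3, 84.6% of it in KO2 and 20.5% in WT3. The promoter was covered fully in WT1, WT2 and KO1, by 75.4% in KO3, 47.0% in KO2 and 12.5% in WT3. The start site lay outside the KO2 peaks, which flanked it, and inside a peak in the other 5 libraries. Peaks also lay further upstream, in the body of Urad, an enzyme gene of urate breakdown, of which 48.4%, 25.4% and 31.0% was covered in WT1, WT2 and WT3 and 65.8%, 58.3% and 41.6% in KO1, KO2 and KO3. The KO value was higher in each same-numbered pair, and the groups overlapped. Next comes Flt3, the cytokine receptor gene of multipotent progenitors, whose 69749 bp body held no peak in any library.

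Gsx2 (ENSMUSG00000035946.7, chr5:75075601-75077893, plus strand, 2 exons), which patterns the lateral ganglionic eminence, had broad peaks of 14489 and 15019 bp in WT1 and WT2 and of 9618 and 19000 bp in KO1 and KO2. In the 50 bp libraries they spanned 1181 bp in WT3 and 5576 bp in KO3 and lay upstream of the start site. Promoter coverage was 100% in WT1 and WT2, 82.1% in KO1, 79.0% in KO2, 23.1% in WT3 and 24.3% in KO3, so the 50 bp pair lay far below the 75 bp libraries. The difference between KO and WT was -19.5 percentage points among the 75 bp libraries and 1.20 between the 50 bp libraries, and over all libraries the groups overlapped.

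Cdx1 (ENSMUSG00000024619.8, chr18:61018862-61036199, minus strand, 3 exons), an intestinal and posterior body factor, had on average the narrowest peaks, of 6971, 8882 and 1715 bp in WT1, WT2 and WT3 and of 2316, 3802 and 3947 bp in KO1, KO2 and KO3. Its promoter overlaps that of Pdgfrb, which starts 8951 bp away on the other strand, and a peak in the short overlap of the promoters counts for both. The WT1 call rested on such a peak, which reached 216 bp into the Cdx1 promoter and left the start site uncovered. In the other 5 libraries a peak held the start site. Promoter coverage was 4.23%, 79.1% and 13.6% in WT1, WT2 and WT3 and 44.9%, 47.1% and 49.3% in KO1, KO2 and KO3, so the KO values lay inside the WT range. Little of the body was covered, at most 8.85%. Mean coverage inside the Cdx1 peaks was 2.64, 3.99 and 2.72 in WT1, WT2 and WT3 and 5.51, 5.34 and 3.49 in KO1, KO2 and KO3, with means of 3.12 ± 0.757 and 4.78 ± 1.12 (SD, n = 3 each). The groups overlapped, since WT2 exceeded KO3, and the KO library was higher in each same-numbered pair. Relative to the median peak of the same library the values were 0.718, 1.07 and 1.04 in WT1, WT2 and WT3 and 1.39, 1.43 and 0.916 in KO1, KO2 and KO3, so on that scale WT3 exceeded KO3. The WT1 value came from the peak on the Pdgfrb side, and the WT2 value joined such a peak, with a mean coverage of 4.89, to the peak over the start site, with 3.31, which alone lay below every KO value.

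**Figure D4:**
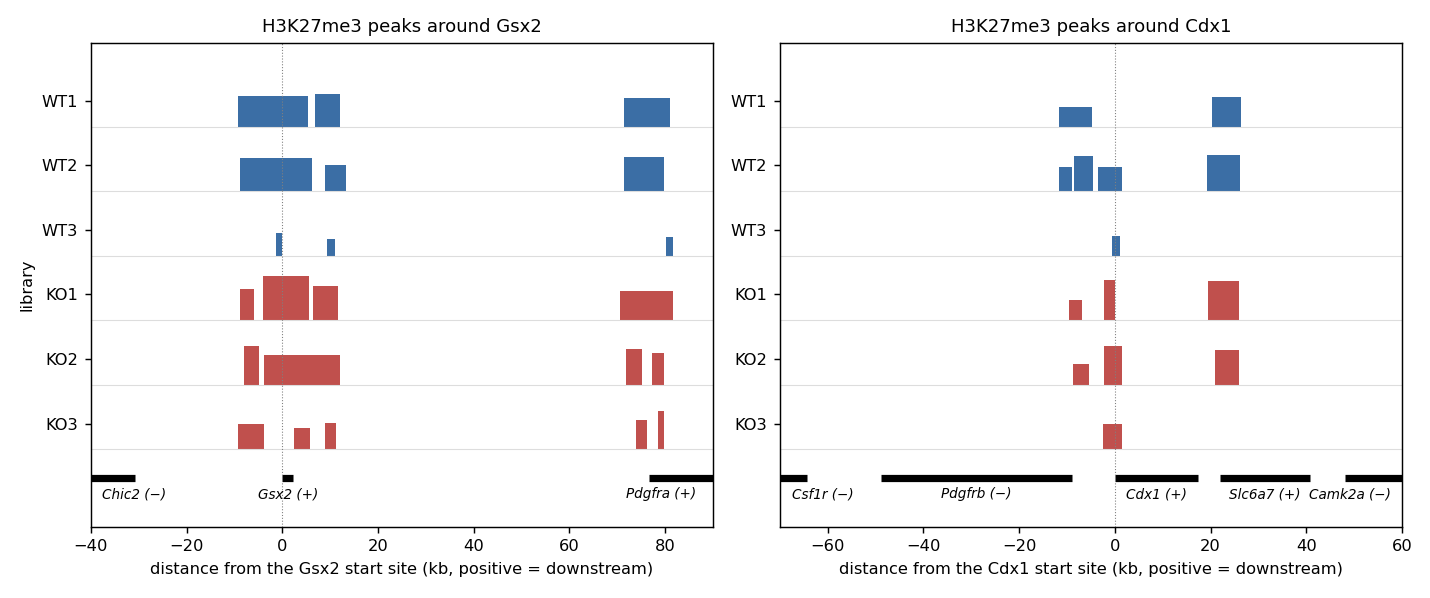
H3K27me3 peaks of the 6 libraries around Gsx2 (left) and Cdx1 (right), by distance from the start site in kb in the direction of transcription, with WT in blue and KO in red. Bar height is mean coverage, black bars are coding genes, and (+) or (−) is their strand relative to the member. Peaks at Gsx2 spread to both sides of the gene, and those at Cdx1 lay near the start site and toward Pdgfrb. A further peak lay over the start of Slc6a7 in 4 libraries.

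Per covered base the 5 genes were alike. Mean coverage over the libraries with a peak was 4.27 ± 1.05 at Gsx2 (SD, n = 6), 4.21 ± 0.719 at Gsx1 (SD, n = 5), 4.19 ± 0.950 at Cdx2, 3.97 ± 0.601 at Pdx1 and 3.95 ± 1.25 at Cdx1 (SD, n = 6 each). No neighbours in this order differed beyond their spread. Relative to the median peak of the same library these levels were 1.19, 1.11, 1.16, 1.11 and 1.09 times. Width differed more, with means of 14292 ± 7513 bp at Cdx2, 10814 ± 6631 bp at Gsx2, 10216 ± 5301 bp at Pdx1, 9148 ± 3792 bp at Gsx1 (n = 5) and 4606 ± 2777 bp at Cdx1 (SD, n = 6 where not given). Here too each neighbouring pair overlapped within its spread.

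Signal was compared between genotypes at the 717 regions of merged peaks called in all 6 libraries. The measure was log2 total signal minus the median over these regions in the same library, and that median stood at a total signal of 4669 in WT3 and of 16050 to 36629 in the other libraries. Of the 717 regions, 3 held a member: Pdx1 (chr5:147264339-147281258), Cdx2 (chr5:147296765-147319892) and Gsx2 (chr5:75066267-75088902). The regions of Gsx1 and Cdx1 were not among them. Gsx1 had no peak in WT3. At Cdx1 the WT1 peak, on the Pdgfrb side, did not merge with the peaks over the start site. In a limma fit over all regions, 0% passed an adjusted p of 0.05 and 1.12% (8, 4 higher and 4 lower in KO) an unadjusted p of 0.05.

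The Pdx1 region stood at 0.02, 0.60 and -0.15 in WT1, WT2 and WT3 and at 1.0, 0.99 and 1.35 in KO1, KO2 and KO3. The groups did not overlap, with means of 0.15 ± 0.39 and 1.11 ± 0.21 (SD, n = 3 each). The KO minus WT value was 0.96 (SE 0.33), the largest of the 717 regions. It was 0.69 among the 75 bp libraries and 1.51 between the 50 bp libraries. Per covered base the same difference was -0.11 (SE 0.15) and by the maximum 0.08 (SE 0.26), so the total signal differed with the width of the peaks.

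At Cdx2 the values were 1.81, 1.34 and 0.83 in the WT and 1.60, 1.04 and 2.10 in the KO libraries, a difference of 0.25 (SE 0.39). Those at Gsx2 were 1.68, 1.3 and 0.61 against 1.39, 1.44 and 1.23, a difference of 0.16 (SE 0.35). Groups overlapped at both, and both differences were positive between the 50 bp libraries (1.27 and 0.62) and negative among the 75 bp libraries (-0.26 and -0.07). The mean level exceeded that of most shared regions, at percentile 95.4 for Cdx2 and 92.3 for Gsx2, with 76.6 for Pdx1.

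**Figure D5:**
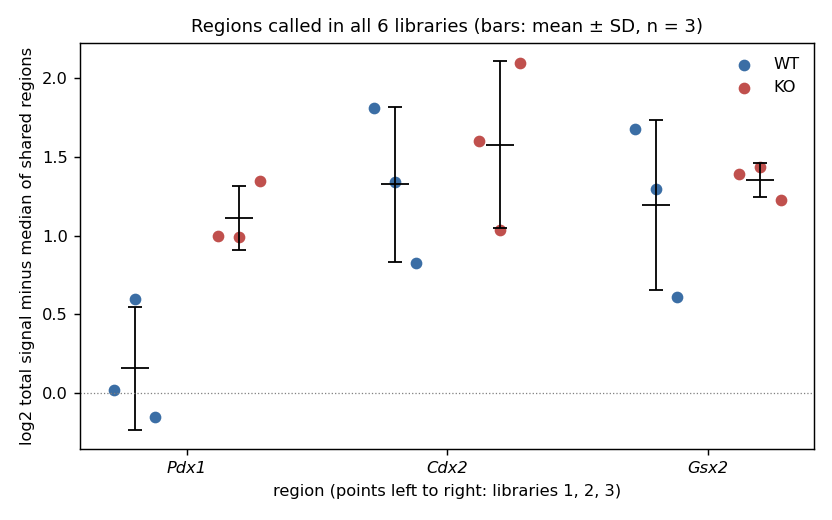
Log2 total signal, minus the median of the 717 shared regions in the same library, at the 3 member regions called in all 6 libraries, with 1 point for each library (WT in blue, KO in red) and bars for mean ± SD (n = 3). At Pdx1 the WT points lie between -0.15 and 0.60 and the KO points between 0.99 and 1.35, and at Cdx2 and Gsx2 the groups overlap.

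Regions were also ranked by likeness to each member region, as the root mean square difference of their 6 log2 values. Nearest to Pdx1 were the regions of Stac3 with Ndufa4l2 (0.23), Sp8 (0.31) and Sox14 (0.33). Nearest to Cdx2 were Onecut3 (0.22), Zic5 with Zic2 and Gm10837 (0.27) and Skor1 (0.28). Nearest to Gsx2 were Pax5 (0.18), Msx3 (0.20) and a region of the Duox genes and their maturation factors (0.22).

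Few chromosomal neighbours shared the calls of the members, as few coding genes did in general. Of 16 other coding genes within 200 kb of a member, 4 had a promoter peak in at least 1 library and 1 in all 6, against the 15.8% and 2.65% of coding genes given above. The 12 without one were Urad, whose body held a peak in all 6 libraries, and 11 others, including Flt3 and Csf1r, receptor genes of blood progenitors and of macrophages. Pdgfra, a mesenchymal growth factor receptor 74399 bp from Gsx2, had one in all 6 libraries. Pdgfrb and the transporter gene Slc6a7, on either side of Cdx1, had one in 4 libraries, WT1, WT2, KO1 and KO2. Arsi, a sulfatase gene, had one in 4 as well, 1 WT and 3 KO. Kit, the stem cell factor receptor gene, lies outside these windows and was among the marker genes without a peak.

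Many genes of both lists of regulators related to the ParaHox factors carried the mark as well. The lists were chosen with earlier results of these data known, so nothing is read from their excess over all coding genes. Of 21 regulators of pancreas and gut, 9 had a promoter peak in all 6 libraries, 18 in all 3 KO and 9 in all 3 WT libraries. The shares of all coding genes were 2.65% in all 6, 7.12% in all 3 KO, 3.01% in all 3 WT and 15.8% in at least 1 library. Among the 9 were Nkx2-2, Nkx6-1, Pax6 and Mnx1, which act in endocrine cells of the pancreas, Onecut1 of its progenitors, and Gata4 and Gata6 of the endoderm. Hnf4a, which drives liver and gut genes, and Isx of the intestine had none in any library. Of 12 forebrain regulators, most of them ventral and some, such as Emx2, dorsal, Dlx1, Emx2, Olig2, Ebf1 and Lhx6 had a promoter peak in all 6, 10 in all 3 KO and 12 in at least 1. WT3 alone marked 9 of the 21 and 5 of the 12, whereas each other library marked at least 18 and 10. The median gene of either list was called in 5 libraries, against 0 for all coding genes.

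Cdx4, an X-linked ParaHox gene and paralog of Cdx1 and Cdx2 that acts in embryonic blood formation, had a promoter peak in 3 libraries, WT1, WT2 and KO1. Its total signal was 8842, 10549 and 21284 there, and each of these peaks held the start site. Cdx4 was thus called less widely than any of the 5 members, and its calls did not follow genotype.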

How the data were processed

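CUT&Tag for H3K27me3 was performed on LT-HSCs of 3 IκBα WT and 3 IκBα KO samples. Per the study's methods and labels, the authors trimmed reads (Trim Galore 0.6.6), aligned them to GRCm38 (Bowtie2 2.4.4), removed multimapping reads, reads of mapping quality under 20 and duplicates, and kept the top 0.5% of peaks of each library (SEACR 1.3, stringent). The values used here from the deposited peak lists are signal, the total and the maximum coverage of each peak, not scaled to depth; coverage tracks were not used. Here peaks on chromosomes 1 to 19, X and Y were placed on GENCODE M21 genes, with an overlap of at least 1 bp, and no peak was moved between builds. Overlapping peaks were merged, and regions called in all 6 libraries were fitted with limma 3.58.1 in R 4.3.3 on log2 total signal centred on the median of these regions, after tests on simulated data. P-values were adjusted over all 717 regions by the Benjamini-Hochberg method. Same-numbered libraries deviated together (r = 0.27, 0.31 and 0.47 for numbers 1, 2 and 3), so the numbers were taken to pair the samples. WT2 and KO1 did so as well (r = 0.27), and pairs of a 50 bp with a 75 bp library went from -0.44 to -0.27, so the pattern also divides the 50 bp from the 75 bp libraries. Read length, depth and replicate 3 cannot be told apart. The members, the gene lists and the named genes were chosen with earlier results of these data known. The named genes were the members, Cdx4, neighbours with a promoter peak or a known role in blood, the genes of both regulator lists called in all or in no library (some are not reported here), and the 3 regions nearest to each member region. The upstream KO block of Pdx1 and the comparison of promoter coverage were added after the values were seen.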

Additional observations from a re-analysis of the deposited data

How the results depend on the processing

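The number of members with a promoter peak in all 6 libraries, 3, was 1 with the same number of top peaks from every library (Gsx2), 1 with peaks above the library median and 1 with a promoter of 1 kb to either side (Cdx2 in both). It was 4 counting gene bodies and 2 with an overlap of 500 bp. In all 3 KO libraries it was 3 with the same number of top peaks, in place of 5. Leaving out 1 library gave 3 to 4 over all libraries, 3 to 4 in WT and 5 in KO, with 4 without WT1 (Pdx1 added) or without WT3 (Gsx1 added). With the same number of top peaks from every library, Cdx1 was called in only 2 libraries, WT3 and KO3, and Gsx1 in 4. No region passed the adjusted threshold of limma in any setting. The unadjusted one was passed by 0 of 717 regions (scaled by total signal) to 119 of 2554 (4.66%, 75 bp libraries only). Pdx1 reversed to -0.11 by mean coverage, Cdx2 to -0.03 by mean coverage, -0.04 by the maximum and -0.24 in the 75 bp libraries. Gsx2 reversed to -0.08 scaled by total signal, where the median of all regions moved to -0.26, to -0.04 by mean coverage, -0.10 by the maximum, -0.06 in the 75 bp libraries and -0.13 without WT3. The cause was not tested, except that total signal is by construction mean coverage times width. Leaving out 1 library gave 0.82 to 1.19 at Pdx1, 0.01 to 0.52 at Cdx2 and -0.13 to 0.40 at Gsx2, and -2.66 (without WT3) to 15.7 (without WT2) percentage points for the window of Gsx1, Pdx1 and Cdx2. With the replicate block, Pdx1 stood at 0.96 (SE 0.31), Cdx2 at 0.25 and Gsx2 at 0.16, the window at 7.35, and 0 regions passed the adjusted and 25 the unadjusted threshold, so the block changed no call. The peak lists hold no read counts, WT3 was the shallowest library by the study's read totals, and a missing peak shows only that signal did not reach the peak threshold of that library.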
